A study of Homo sapiens with 36 samples.

Results

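The acetylation state of POSR cells was set against that of POS cells after 14 days of trametinib, region by region, to see which of the day 14 changes POSR kept, lost or exceeded. POSR and POS are subpopulations of SUM-229PE, an established triple-negative breast cancer cell line. POS cells were sorted as EpCAM+ CD49f+ and NEG cells as EpCAM- CD49f-. The 6 libraries compared are 2 of POSR1, 2 of POSR2 and 2 of POS at day 14 of 10 nM trametinib, an inhibitor of the kinase MEK. The controls are 3 libraries of POS in DMSO, which belong to the POSR table, and 2 libraries of POS at day 0, which belong to the day 14 table. All of these are chromatin immunoprecipitations of H3K27ac, 11 of the 36 libraries of the study, and the 2 comparisons share no library. Further libraries are only set beside the results. They are H3K27ac of NEG at 24 hours of 30 nM and at day 14 of 10 nM trametinib, with their controls, and JUNB of POS and NEG in DMSO. The labels place POSR1 and POSR2 in 1 subpopulation called POSR and give them no treatment, so neither their drug exposure at harvest nor how they were derived is known here, and nothing in the labels says that the libraries of a group came from separate cultures. The p-values below therefore measure the spread between libraries, which may be technical. Where POSR is taken as 1 group, this spread includes that between POSR1 and POSR2.

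Regions are 1001 bases wide (end minus start) in hg19 coordinates, and each table has its own set. Matching them 1 to 1 by a reciprocal overlap of at least 50% gave 31001 pairs, which are 69.9% of the 44343 regions of the day 14 table and 57.9% of the 53549 regions of the POSR table. The overlap was 958 bases at the median. Of these pairs, 30986 passed the filter on low counts in every test and are the members described here. No annotation of hg19 was used, so regions are given by position and not by gene, and the sorting markers EpCAM and CD49f were not checked.

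H3K27ac, acetylation of lysine 27 of histone H3, marks active promoters and enhancers, and its level at a region is a common readout of whether that element is in use. MEK activates the kinase ERK, and blocking it removes ERK's input to many transcription factors, among them the AP-1 family to which JUNB belongs. Tumour cells under a kinase inhibitor can change their enhancer use within days, and cells that go on growing in the drug can hold some of that state or a different one.

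Counts in regions ran between 3201383 and 5713610 per library in the day 14 table and between 4537976 and 8908747 in the POSR table. Libraries of 1 group correlated at r of 0.962 to 0.982, and none of the pairs agreed within sampling noise. Tests used edgeR's quasi-likelihood method with Benjamini-Hochberg adjustment over all regions of a table and a threshold of 0.05. At day 14, 39.5% of all regions tested were called higher and 38.2% lower. POSR as 1 group of 4 was called higher in 17.5% and lower in 18.5% of the regions of its table. Libraries of 1 line lay close together, with r of 0.981 in POSR1 and 0.982 in POSR2. The spread within POSR as 1 group also holds the difference between the 2 lines. The test nevertheless counted the 4 libraries as independent, though they came from only 2 lines. With simulated 2-fold changes the day 14 test recovered 71% and the POSR test 19%, and with 4-fold changes 95% and 79%. A region that is not called in POSR may thus still have changed by 2-fold.

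POSR carried part of the day 14 changes in both directions. Day 14 called 32.6% of matched regions higher and 43.5% lower. Of the 10093 called higher (gains), 3314 or 32.8% were also higher in POSR, where 19.8% of all matched regions were called higher. Of the 13477 called lower (losses), 4150 or 30.8% were also lower in POSR, against 18.4% of all matched regions. Changes in the other direction numbered 619 among gains (6.13%, against 18.4% of all matched regions called lower) and 1319 among losses (9.79%, against 19.8% called higher). Where both comparisons called a region, 7464 of 9402 calls went the same way, which is 79.4%.

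The change in POSR minus the change at day 14 was then tested itself, and this difference was called in 44.5% of matched regions, higher in 24.8% and lower in 19.7%. It sorts the changes into fates. A gain was kept in full where POSR was also higher and the difference was not called, which held for 2410 gains (23.9%), and kept in part where the difference was called downward, which held for 824 (8.16%). It was exceeded in 80 gains (0.793%), where POSR was higher by more than day 14. It was lost in 3634 gains (36.0%), where POSR was not called and the difference was, and reversed in 619 (6.13%), where POSR was lower. The other 2526 gains (25.0%) could not be placed. Losses sorted in a like way, with 2684 kept in full (19.9%), 1244 kept in part (9.23%), 222 exceeded (1.65%), 4449 lost (33.0%), 1314 reversed (9.75%) and 3564 not placed (26.4%). Kept in full means only that no difference was called, not that the 2 changes were equal. The test of the difference recovered 5% of simulated 2-fold and 68% of simulated 4-fold differences. Which of the same-way and the lost class is larger depends on the settings. With the lines entered as separate groups 4915 gains and 6541 losses went the same way, against 3507 gains and 3585 losses lost. In 588 further matched regions POSR was higher with no call at day 14 and a called difference, and in 608 it was lower. Of all regions called in POSR, 65.9% of the 9331 higher and 57.7% of the 9873 lower ones had a day 14 partner. The others could not enter these counts. Their median log2 changes were 1.25 and -1.29, against 0.85 and -1.04 in those with a partner.

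The control libraries weigh on these counts, and the third POS DMSO library weighs most on those called the same way. Without the third POS DMSO library, 1959 gains and 2717 losses were called the same way in POSR, 339 gains and 644 losses were reversed and 386 regions were lower in POSR alone. Without the second POS DMSO library 2515 gains and 3580 losses were called the same way and 796 losses were reversed. Without the first POS DMSO library 2711 gains and 2961 losses were called the same way. Leaving out a day 14 or day 0 library left 17 to 44 gains and 89 to 146 losses exceeded, gave 2404 lost gains without the first day 0 library, and gave 362 regions higher in POSR alone without the second. The test of day 14 has 2 libraries a side, and a lone library is then taken to vary like the others.

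Over the matched regions the log2 fold changes of POSR and of day 14 had a Pearson r of 0.449 and a Spearman rho of 0.447 (30986 regions, described with no p, since regions share libraries). The slope of POSR on day 14 was 0.258, and the standard deviation across regions was 0.82 in POSR and 1.43 at day 14. A change of 2-fold or more was found in 5313 regions in POSR and in 14782 at day 14. The plot of the 2 changes shows a cloud flatter than the line of equal change.

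**Figure D1:**
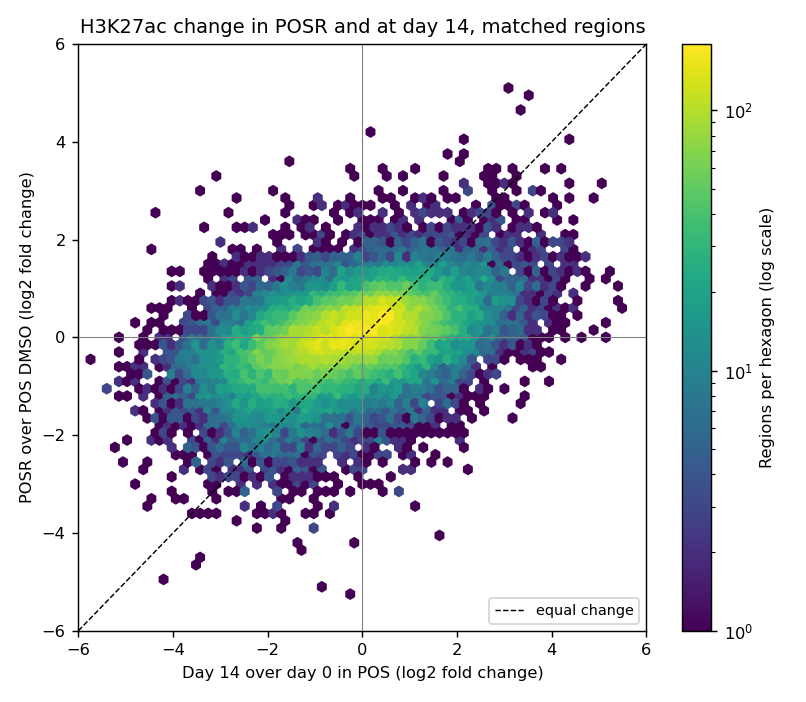
Log2 fold change of H3K27ac in POSR over POS DMSO (vertical axis) against POS day 14 over day 0 (horizontal axis) in 30986 matched regions, coloured by regions per hexagon on a log scale; the dashed line marks equal change. The cloud tilts with r of 0.449 but spreads less in POSR (standard deviation 0.82) than at day 14 (1.43).

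The 2 control groups were close to each other, with a median POS DMSO over day 0 log2 ratio of 0.00, quartiles of -0.24 and 0.24, and 1.66% of regions more than 2-fold apart. The ratio nevertheless moved with the fates. It had a median of -0.29 in gains kept in full, 0.08 in lost gains and 0.26 in reversed gains, and of 0.25 in losses kept in full, -0.01 in lost losses and -0.29 in reversed losses. Day 0 and POS DMSO levels enter the day 14 and POSR changes, and the part of this baseline difference in the fates was not tested.

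Large day 14 losses were carried by POSR more often than small ones, and among gains the shares were closer together. Losses of under 2-fold were lower in POSR in 17.6% of cases, those of 2 to 4-fold in 30.5%, those of 4 to 8-fold in 44.8% and those of 8-fold or more in 53.2%. For gains the shares were 33.6%, 30.1%, 35.2% and 42.7%. Of all matched regions 18.4% were called lower and 19.8% higher in POSR. Losses of under 2-fold were thus lower in POSR no more often than all matched regions. Keeping was mostly partial at the top of the range. Of the 895 losses of 8-fold or more, 41.2% were kept in part and 11.7% in full, and the median log2 change was -0.71 in POSR and -3.42 at day 14. Of the 417 gains of 8-fold or more, 29.5% were kept in part and 13.2% in full, with medians of 0.99 in POSR and 3.44 at day 14. Lost regions made up 50.8% of these gains and 40.2% of these losses. A change counts as kept in part only where a difference smaller than the day 14 change is itself called, and the test of the difference recovered 5% of simulated 2-fold differences, so that small changes could hardly enter this class and its growth with size is largely set by its definition.

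**Figure D2:**
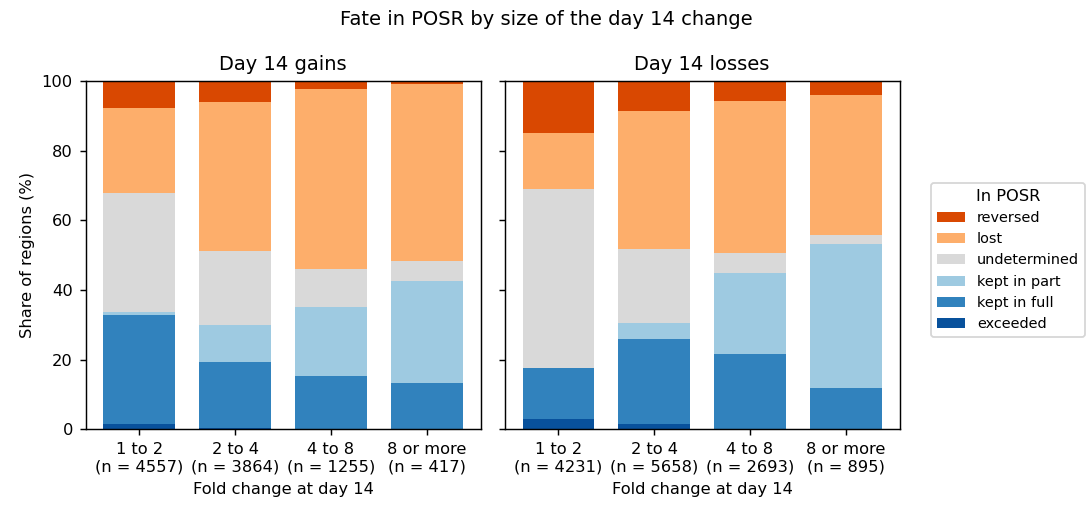
Share of day 14 gains (left) and losses (right) in each fate in POSR, by the fold change at day 14, with the number of regions under each bar. The share kept in part reaches 29.5% of gains and 41.2% of losses of 8-fold or more, and the reversed share is largest among losses of under 2-fold (15.0%).

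Most of the largest day 14 gains could not be followed into POSR. Only 57.7% of the 17522 day 14 gains had a partner in the POSR table, against 79.6% of the 16927 losses, and of the 1376 gains of 8-fold or more only 426 (31.0%) had one. For 854 of these large gains no region of the POSR table overlapped at all. The POSR table lists regions found in POSR or POS DMSO, as its name says, so a gain seen at day 14 alone may have no region there, and its level in POSR is not given in the tables used. The fates above therefore cover the gains whose region was also listed in the POSR table. The matched gains had a median of 28.1 CPM at day 14 and the unmatched ones 12.1 CPM.

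POSR1 and POSR2 did not carry the same share of the day 14 response. Fitted alone against POS DMSO (2 libraries against 3), POSR1 was called the same way in 37.9% of gains and 40.5% of losses, and POSR2 in 51.0% of gains and 47.8% of losses. A background is given only from another fit, with both lines and POS DMSO, over all regions of the POSR table. There POSR1 was called higher in 26.5% and lower in 29.4% of regions, and POSR2 in 28.2% and 29.2%. The other direction was called in 16.9% of gains and 19.2% of losses in POSR1, and in 9.33% of gains and 13.8% of losses in POSR2. The correlation with the day 14 change was 0.281 in POSR1 and 0.529 in POSR2, with the same POS DMSO libraries under both. POSR2 and POSR1 themselves differed in 42.2% of matched regions and in 40.5% of all regions of the table. Lines entered as separate groups raised the calls, to 48.6% of gains and 48.5% of losses the same way in POSR, since the spread between the lines then no longer counts as error.

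To show the levels behind each fate, the first 3 regions of each class are described, ranked by the smaller of both log2 changes for kept regions and by the size of the difference for the others, among regions of at least median level whose groups did not overlap in the called comparisons. Non-overlap is thus set by the choice. Levels are CPM, read counts scaled to the library size, within each table, so a level of POSR and a level at day 14 are each to be read against their own control.

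The strongest kept gain, at chr2:39366452-39367453, had 50.02 and 62.7 CPM in POSR1 and 53.3 and 57.4 CPM in POSR2, against 3.01, 3.93 and 3.48 CPM in POS DMSO. It had 75.1 and 89.6 CPM at day 14, against 3.21 and 4.79 CPM at day 0. All POSR and all day 14 libraries were more than 10-fold above their controls, with log2 changes of 4.02 ± 0.18 in POSR (SE, adjusted p = 9.53e-06) and 4.42 ± 0.20 at day 14. The difference of -0.56 ± 0.30 was not called (adjusted p = 0.143). A further kept gain, at chr22:34983247-34984248, had 31.5 and 33.7 CPM in POSR1 and 28.4 and 27.9 CPM in POSR2, against 0.723, 1.96 and 1.21 CPM in POS DMSO, while it had 25.3 and 21.6 CPM at day 14, against 2.14 and 2.39 CPM at day 0. POSR1 and POSR2 lay close together there (log2 4.74 and 4.53). The third, at chr4:153555018-153556019, had 19.95 and 28.4 CPM in POSR1 and 42.4 and 52.2 CPM in POSR2, against 3.01, 4.52 and 4.24 CPM in POS DMSO, and 42.1 and 46.6 CPM at day 14, against 5.35 and 4.19 CPM at day 0. POSR2 was above POSR1 there (log2 3.62 and 2.67), and both were above every POS DMSO library.

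Exceeded gains rose at day 14 by less than they did in POSR. The first, at chr10:25270328-25271329, had 54.9 and 56.1 CPM in POSR1 and 57.3 and 51.8 CPM in POSR2, against 10.6, 8.45 and 10.3 CPM in POS DMSO. Day 14 moved it little, with 24.4 and 25.7 CPM at day 14, against 18.4 and 18.8 CPM at day 0. Its log2 change was 2.48 ± 0.15 in POSR and 0.43 ± 0.16 at day 14, a difference of 1.88 ± 0.18 (adjusted p = 1.78e-05). The second, at chr9:123379022-123380023, had 48.3 and 54.3 CPM in POSR1 and 26.2 and 33.4 CPM in POSR2, against 5.18, 7.07 and 6.21 CPM in POS DMSO, and 18.6 and 14.3 CPM at day 14, against 8.39 and 8.08 CPM at day 0. The third, at chr22:25515998-25516999, had 75.7 and 72.2 CPM in POSR1 and 55.1 and 50.7 CPM in POSR2, against 16.4, 14.3 and 16.1 CPM in POS DMSO, and 50.03 and 47.6 CPM at day 14, against 41.05 and 36.8 CPM at day 0. POSR1 and POSR2 lay close together in the first, POSR1 was above POSR2 in the other two, and both lines were above every POS DMSO library in each. POS DMSO and day 0 differed in all 3, by log2 ratios of -0.82, -0.34 and -1.22, and the part of this in the difference was not tested.

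Lost gains had strong acetylation at day 14 and control-like levels in POSR. The region at chr1:31592810-31593811 had 2.67 and 2.51 CPM in POSR1 and 6.58 and 5.91 CPM in POSR2, against 2.17, 3.14 and 2.57 CPM in POS DMSO. In the drug it had 75.7 and 80.4 CPM at day 14, against 1.25 and 2.99 CPM at day 0. POSR1 overlapped POS DMSO, POSR2 was somewhat higher, and the difference was -4.70 ± 0.64 on the log2 scale (adjusted p = 1.54e-04). At chr10:93547064-93548065 there were 5.34 and 3.46 CPM in POSR1 and 4.67 and 2.76 CPM in POSR2, against 3.98, 4.91 and 3.94 CPM in POS DMSO, with every line overlapping the control, and 65.2 and 68.6 CPM at day 14, against 3.39 and 3.29 CPM at day 0. At chr2:144565158-144566159 there were 2.39 and 1.31 CPM in POSR1 and 7.30 and 6.18 CPM in POSR2, against 6.99, 11.2 and 6.97 CPM in POS DMSO, and 54.5 and 57.2 CPM at day 14, against 6.25 and 4.19 CPM at day 0. Here POSR1 was below all POS DMSO libraries and POSR2 overlapped them.

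Reversed gains went below their control in POSR. The region at chr14:23606654-23607655 had 2.81 and 2.27 CPM in POSR1 and 4.07 and 4.21 CPM in POSR2, against 15.1, 13.4 and 15.4 CPM in POS DMSO, so that both lines were lower, with a log2 change of -2.13 ± 0.24 (adjusted p = 2.73e-04). The same region had 55.7 and 49.8 CPM at day 14, against 13.2 and 13.5 CPM at day 0, a log2 change of 1.99 ± 0.16. The region at chr2:225725459-225726460 had the largest difference among reversed gains named, -4.75 ± 0.32, with 2.39 and 2.03 CPM in POSR1 and 3.95 and 3.15 CPM in POSR2, against 7.23, 6.09 and 6.36 CPM in POS DMSO, and 72.2 and 73.5 CPM at day 14, against 6.96 and 6.88 CPM at day 0. The third, at chr15:69977306-69978307, had a log2 change of -1.43 ± 0.24 in POSR and 2.54 ± 0.17 at day 14.

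Among losses, the kept region at chr7:55053121-55054122 had 9.41 and 11.3 CPM in POSR1 and 5.75 and 7.62 CPM in POSR2, against 113, 75.8 and 102 CPM in POS DMSO. Its day 14 values were as low, with 8.86 and 7.25 CPM at day 14, against 69.96 and 67.9 CPM at day 0. The log2 change was -3.51 ± 0.23 in POSR and -3.09 ± 0.17 at day 14, and the difference of -0.59 ± 0.33 was not called (adjusted p = 0.172). This region was also lower in NEG cells under trametinib, with log2 changes of -1.80 at 24 hours of 30 nM and -1.72 at day 14 of 10 nM, both called. The region at chr3:180138550-180139551 had 9.98 and 7.40 CPM in POSR1 and 2.63 and 2.10 CPM in POSR2, against 55.8, 48.3 and 57.3 CPM in POS DMSO, and 1.29 and 3.53 CPM at day 14, against 41.05 and 34.1 CPM at day 0. In the third, at chr1:177418169-177419170, POSR1 fell further than POSR2, with 2.11 and 1.55 CPM in POSR1 and 12.6 and 9.72 CPM in POSR2, against 47.5, 41.1 and 51.2 CPM in POS DMSO, and it had 2.03 and 1.76 CPM at day 14, against 12.1 and 14.4 CPM at day 0; POS DMSO and day 0 differed there by a log2 ratio of 1.92.

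Exceeded losses fell further in POSR than at day 14. At chr7:102613076-102614077 there were 4.50 and 3.46 CPM in POSR1 and 2.75 and 2.37 CPM in POSR2, against 41.9, 34.4 and 35.9 CPM in POS DMSO, and 18.6 and 17.2 CPM at day 14, against 27.3 and 30.8 CPM at day 0. The log2 change was -3.52 ± 0.22 in POSR and -0.68 ± 0.16 at day 14, with a difference of -2.999 ± 0.29 (adjusted p = 1.67e-05). At chr7:73512106-73513107 the values were 3.93 and 2.98 CPM in POSR1 and 9.58 and 10.3 CPM in POSR2, against 71.6, 52.1 and 64.4 CPM in POS DMSO, and 29.5 and 30.2 CPM at day 14, against 71.6 and 50.9 CPM at day 0. The other one named, at chr1:13945805-13946806, had a difference of -2.61 ± 0.59. POSR1 lay below POSR2 in these last 2.

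Lost losses were almost without acetylation at day 14 and at control level in at least 1 POSR line. The region at chr13:75465767-75466768 had 56.1 and 58.4 CPM in POSR1 and 20.9 and 21.7 CPM in POSR2, against 54.8, 44.8 and 54.5 CPM in POS DMSO. At day 14 it was near empty, with 0.923 and 1.18 CPM at day 14, against 55.9 and 55.6 CPM at day 0. POSR1 was level with POS DMSO, POSR2 was below it, and the difference from the day 14 change was 5.15 ± 0.76 (adjusted p = 2.55e-04). The region at chr6:86173901-86174902 had 74.8 and 74.2 CPM in POSR1 and 42.1 and 53.5 CPM in POSR2, against 87.0, 60.3 and 75.4 CPM in POS DMSO, and 1.66 and 2.55 CPM at day 14, against 76.2 and 72.7 CPM at day 0. In the region at chr2:123838671-123839672 POSR1 was again above POSR2, but here POSR1 lay above the control and POSR2 overlapped it. This region had 66.2 and 72.6 CPM in POSR1 and 19.99 and 23.7 CPM in POSR2, against 21.6, 17.5 and 22.6 CPM in POS DMSO. It had 1.85 and 1.96 CPM at day 14, against 35.3 and 25.7 CPM at day 0.

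Reversed losses were higher in POSR than in POS DMSO. The largest difference of all named regions was at chrX:141338433-141339434, with 78.3 and 85.8 CPM in POSR1 and 39.98 and 35.7 CPM in POSR2, against 8.56, 3.54 and 5.60 CPM in POS DMSO, and 2.22 and 1.37 CPM at day 14, against 17.3 and 11.1 CPM at day 0. The log2 change was 3.30 ± 0.41 in POSR and -3.01 ± 0.34 at day 14, a difference of 6.12 ± 0.71 (adjusted p = 5.25e-05). The region at chr12:5286302-5287303 had 63.5 and 62.5 CPM in POSR1 and 29.4 and 27.1 CPM in POSR2, against 21.4, 16.9 and 14.5 CPM in POS DMSO, and 1.48 and 1.76 CPM at day 14, against 28.6 and 27.5 CPM at day 0. Both POSR lines were above the controls, POSR1 by more. The third, at chr7:140861938-140862939, had 44.7 and 54.1 CPM in POSR1 and 38.9 and 43.2 CPM in POSR2, against 18.1, 19.8 and 13.9 CPM in POS DMSO, and 3.14 and 1.96 CPM at day 14, against 37.5 and 34.4 CPM at day 0. The lines lay closer together there, with log2 changes of 1.52 in POSR1 and 1.25 in POSR2. POS DMSO lay below day 0 in all 3, by log2 ratios of -1.16, -0.57 and -0.96, and the part of this in the reversal was not tested.

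Some of the strongest POSR changes had no counterpart at day 14. The region at chr8:83908560-83909561 had 38.5 and 41.4 CPM in POSR1 and 39.9 and 42.97 CPM in POSR2, against 2.17, 1.96 and 2.57 CPM in POS DMSO, the same level in both lines. It had 7.01 and 6.66 CPM at day 14, against 6.60 and 4.79 CPM at day 0, which lie close together, and its day 14 change of 0.22 ± 0.32 was not called (adjusted p = 0.529). POS DMSO lay below day 0 there, by a log2 ratio of -1.27, so its rise in POSR is larger against POS DMSO than it would be against day 0. The region at chr5:24788879-24789880 had 107 and 125 CPM in POSR1 and 55.3 and 56.2 CPM in POSR2, against 7.83, 8.64 and 7.88 CPM in POS DMSO, and 6.28 and 8.04 CPM at day 14, against 5.71 and 5.39 CPM at day 0. The third, at chr19:52310793-52311794, had 50.6 and 57.9 CPM in POSR1 and 18.8 and 17.6 CPM in POSR2, against 4.58, 7.27 and 5.15 CPM in POS DMSO, and 5.35 and 3.33 CPM at day 14, against 5.71 and 4.19 CPM at day 0, with POSR1 well above POSR2. In the other direction, the region at chr6:131374622-131375623 had 4.36 and 5.13 CPM in POSR1 and 8.14 and 6.96 CPM in POSR2, against 29.4, 22.98 and 26.5 CPM in POS DMSO, a log2 change of -2.09 ± 0.22. Its day 14 values were 24.9 and 19.99 CPM at day 14, against 21.4 and 18.8 CPM at day 0. The further lower regions named, at chr17:37365448-37366449 and chr4:80127486-80128487, had POSR changes of -1.99 ± 0.25 and -2.36 ± 0.37.

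**Figure D3:**
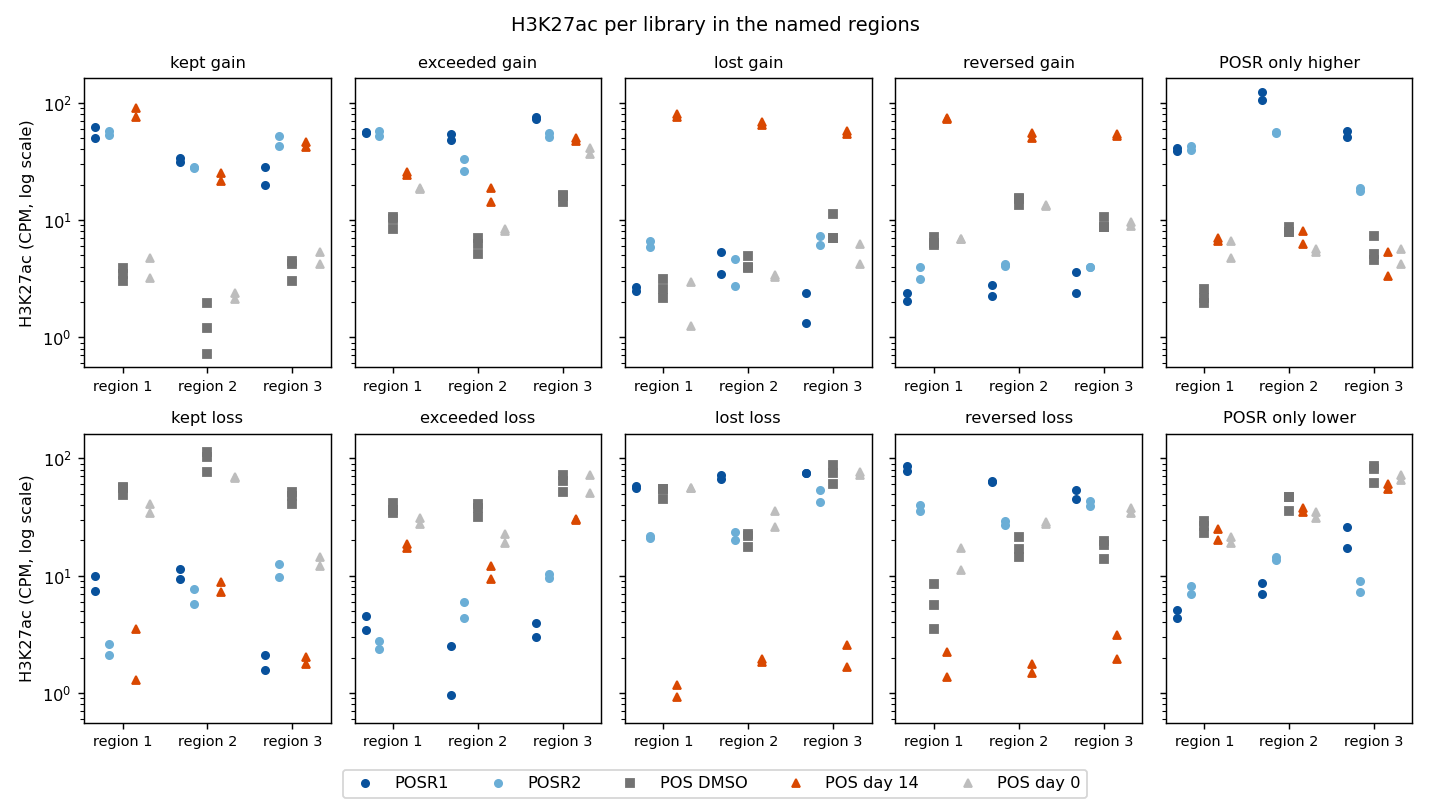
H3K27ac level in CPM (log scale) of the 3 first regions in each of 10 classes, 1 point per library, in the order POSR1, POSR2, POS DMSO, POS day 14, POS day 0. Kept gains have both the POSR and the day 14 points above their controls, lost gains and lost losses have the day 14 points farthest from theirs, and regions called in POSR alone have the POSR points farthest from theirs.

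Whole chromosomes also differed in the level of POSR over POS DMSO. On chromosome 19 the median log2 change was 0.57 in POSR and 0.31 at day 14, 45.6% of its 632 regions were called higher in POSR, 5.22% were called lower, and 58.9% of its gains and 15.8% of its losses were called the same way. Chromosome 22 had a POSR median of 0.34 and chromosome 20 of 0.29. On chromosome 1 the median was -0.21 in POSR, 30.0% of 2914 regions were called lower and 10.8% higher, and the shares called the same way were 19.1% of gains and 46.4% of losses. The shares called the same way are thus to be read against the share of all regions of the chromosome called in that direction, which they follow on these 2 chromosomes. Chromosome 14 parted the lines, with a median of 0.04 in POSR1 and -0.36 in POSR2. In windows of 5 Mb with 20 or more regions, the POSR median was under -0.5 in 10 and over 0.5 in 22 of 525.

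Within chromosome 1 the window from 115 to 120 Mb had a median of -0.75 in POSR and 0.32 at day 14, and 55.6% of its 81 regions were called lower in POSR, against 43.2% of its 37 gains. The window from 105 to 110 Mb had a median of -0.93 in POSR and -0.04 at day 14. On chromosome 19 the window from 50 to 55 Mb had a median of 0.98 in POSR and 0.21 at day 14, and 61.4% of its 44 regions were called higher in POSR, as were 83.3% of its 18 gains and 40.0% of its 10 losses. The 2 lines were close in these windows, with medians of -0.80 in POSR1 and -0.65 in POSR2 in the first and 0.96 and 0.94 in the last.

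Fates also clustered locally. A loss with a neighbouring loss within 10 kb was called the same way in POSR in 55.7% of cases where the neighbour was, and in 20.6% where it was not. For gains the shares were 48.1% and 23.1%. Runs of at least 5 regions with 1 fate and gaps under 50 kb numbered 12 for kept losses, 29 for lost or reversed losses, 6 for kept gains and 8 for lost or reversed gains. The longest, at chr20:36678197-36816220, held 12 lost or reversed losses, 7 of them reversed, with a median log2 change of 0.52 in POSR and -1.94 at day 14. The longest kept run of losses by rank, at chr1:85744411-85873737, held 8 regions with medians of -1.24 in POSR and -1.05 at day 14. Among gains, 6 kept regions at chr6:43364048-43493354 had medians of 0.94 in POSR and 1.15 at day 14. Regions a few kb apart can share reads of 1 acetylated domain, so they are not independent.

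JUNB binding in DMSO, from libraries that none of these fates used, was set beside them. A JUNB site lay in 79.9% of gains called the same way, 79.4% of lost gains and 87.9% of reversed gains, and in 92.9% of losses called the same way, 92.8% of lost losses and 89.4% of reversed losses, against 86.2% of all matched regions. Counting only sites at or above the median level, the shares were 43.4%, 48.7% and 61.1% in gains called the same way, lost and reversed, and 81.7%, 80.8% and 69.3% in losses, against 62.6% of all matched regions. Among regions with a site, it was called higher in POS in 49.1% of gains called the same way, 62.0% of lost gains and 59.6% of reversed gains, against 46.0% of all matched regions with a site; of all JUNB sites tested, POS had the higher signal in 28.5% and NEG in 29.4%. Among losses called the same way it was higher in NEG in 32.4%, against 18.7% of lost losses, 14.1% of reversed losses and 16.7% of all matched regions with a site. The site was higher in POS in 33.0% of losses called the same way, 41.0% of lost losses and 48.7% of reversed losses. Losses called the same way were thus split about evenly between POS and NEG. In gains the shares higher in NEG were 8.42% (same way), 9.19% (lost) and 14.9% (reversed). These are descriptions with no test.

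**Figure D4:**
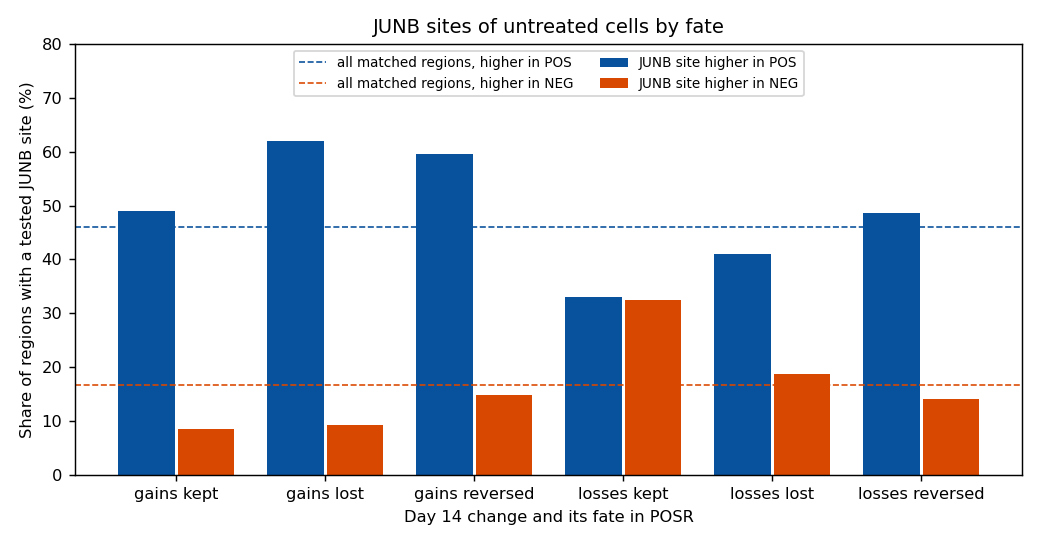
Share of regions with a JUNB site whose site was called higher in POS (blue) or higher in NEG (orange) in DMSO, for gains and losses called the same way (kept), lost and reversed in POSR; dashed lines give the shares over all matched regions with a site. Losses kept in POSR had the site higher in NEG in 32.4% and higher in POS in 33.0%, and lost gains had it higher in POS in 62.0%.

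The response of NEG cells to trametinib, from other libraries, also differed with the fate. At 24 hours of 30 nM trametinib 17.2% of all regions of the NEG table were called higher and 19.3% lower. At day 14 of 10 nM trametinib, in its own NEG table, 24.8% were higher and 23.8% lower. Of losses called the same way in POSR and matched to the NEG tables, 57.8% were lower in NEG at 24 hours (2070 regions) and 48.4% at day 14 (2187 regions). The shares for lost losses were 44.3% and 40.7%, and for reversed losses 30.2% and 27.6%. Over all matched regions they were 28.5% and 26.97%. Among gains, 36.0% of those called the same way, 38.6% of lost gains and 24.6% of reversed gains were higher in NEG at 24 hours, against 20.2% of all matched regions. At day 14 the shares were 41.9%, 47.9% and 36.2%, against 22.7%.

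In the authors' deposited table of DESeq2 results, 37.9% of day 14 gains and 32.9% of day 14 losses among the matched regions had an adjusted p under the same threshold and the same direction in POSR (2532 of 6688 and 3160 of 9595). The other direction was found for 301 gains and 899 losses in the authors' deposited table. In these deposited results 19187 of the 53549 regions of the POSR table were called in either direction. The share of all matched regions called in each direction was not counted there, so these shares have no like background beside them.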

How the data were processed

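Members, classes and lists were chosen with earlier results of these data known. Per the submitters' processing notes, cutadapt 1.12, STAR 2.5.2b, featureCounts, MACS2 and DESeq2 were used with the build hg19; the sources used here do not give their roles or settings. For each region and library the authors deposited whole-number raw read counts, without normalization, and tables of DESeq2 results with log2 fold changes and adjusted p-values. Missing p-values in these deposited tables were left missing. Coordinates are printed as deposited, and whether they start at 0 or 1 is not stated. Every count column used was mapped to its sample by name.

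Counts were tested with edgeR 4.0.16 in R 4.3.3, with TMM factors of 0.941 to 1.12 and a minimum count of 10. Tests ran within each table and, for the difference of responses, over the matched regions of 11 libraries. The scale of the matched regions moved the day 14 changes by 0.16 on the log2 scale. A prior count of 2 entered only the log2 CPM used for correlations between libraries. Each SE was derived from the test, as the absolute log2 change divided by the square root of the quasi-likelihood F statistic. A JUNB site was assigned to a region holding at least 50% of it. Tests were checked on simulated data, with 200 changed regions, and tables were made with pandas 2.3.3. Regions were named as the report states, passing over those within 100 kb of one already named in a class and those of 1 locus that is not reported here. Alternatives were DESeq2 1.42.0, library totals, no filter, a replicate block, factors of each full table, an overlap of 80%, a threshold of 0.01, each POSR line alone or as its own group, a 2-fold minimum and each library left out. Replicate numbers did not pair samples (correlations of -0.18 to 0.095). Reads carry no molecular identifiers, so depth covers counting error only.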

Additional observations from a re-analysis of the deposited data

Results flagged for a closer look

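The 2 POSR lines were compared with each other in the named regions, by the contrast POSR2 minus POSR1 in a fit with both lines and POS DMSO (edgeR, 2 libraries a line, adjusted over all regions of the table, of which 40.5% were called). In 20 of the 30 named regions the difference passed the threshold.

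Among the named regions raised in POSR where the lines differed, POSR1 was higher than POSR2 in most. On the log2 scale the POSR2 minus POSR1 difference was -0.79 and -0.48 in exceeded gains 2 and 3, -1.05 and -1.58 in regions 2 and 3 of those higher in POSR alone, and -1.12 and -1.16 in reversed losses 1 and 2. In the third kept gain POSR2 was higher, by 0.95. Over whole classes the median log2 changes in POSR1 and POSR2 were 1.05 and 0.94 in regions higher in POSR alone. They were 0.83 and 0.66 in reversed losses, 1.75 and 1.71 in exceeded gains and 0.88 and 0.91 in gains kept in full. The order of the lines in the named regions thus does not hold for every class.

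Among lost changes the lines differed by 1.27 and 1.89 in lost gains 1 and 3 and by -1.42, -1.67 and -0.64 in the 3 lost losses, so that POSR2 was nearer to the day 14 state in each of these. Among kept losses the difference was -1.85, -0.65 and 2.62, and in exceeded losses 2 and 3 it was 1.62 and 1.53. In the regions lower in POSR alone it was 0.66, 0.83 and -1.43. No sample stood apart within a group of 4 in a named region by Dixon's criterion.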

How the results depend on the processing

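The directions scored for the named regions did not change under any alternative: of 627 repeats over the 30 regions, 619 kept direction and call. The 30 regions were picked from these same data by the size of their changes or differences, so such agreement was largely set by the choice. This score does not mean that the POSR change was alike in each line. In lost loss 1 the log2 change was 0.15 in POSR1 and -1.27 in POSR2, and in lost loss 2 it was 1.75 and 0.07. The difference of the second exceeded gain and of the third region higher in POSR alone each lost its call under the replicate block, at a threshold of 0.01, and without the second day 14 or the first day 0 library, with values of 1.37 to 1.56 and of 2.43 to 2.73. Counts moved more. A threshold of 0.01 gave 10366 calls in POSR and 8935 of the difference, 1706 gains and 2435 losses the same way, 18 gains and 65 losses exceeded, 243 and 508 reversed, and 320 regions higher and 351 lower in POSR alone. Lines as separate groups gave 31919 POSR calls, 6541 losses the same way, 200 gains and 509 losses exceeded, 1353 and 2312 reversed, and 1113 higher and 1344 lower in POSR alone. POSR1 only gave 233 and 621 exceeded, 1698 and 2591 reversed, and 1196 and 1384 in POSR alone. POSR2 only gave 29760 POSR calls, 5152 gains and 6441 losses the same way, 202 and 538 exceeded, 942 gains reversed, and 1043 and 1151 in POSR alone. DESeq2 gave 22 gains and 116 losses exceeded and 365 gains reversed. Factors of each full table gave 145 gains and 135 losses exceeded, and moved the median difference to 0.25, against 0.08. A day 14 change of at least 2-fold left 1782 gains the same way, 11 and 92 exceeded and 263 and 680 reversed. JUNB sites at or above the median level lay in 43.4% of gains and 81.7% of losses called the same way, in 48.7% of lost gains and 80.8% of lost losses and in 61.1% of reversed gains and 69.3% of reversed losses, against 62.6% of all matched regions. Lost changes were the larger class at the settings used, but changes called the same way were with lines as separate groups (4915 gains against 3507 lost, 6541 losses against 3585), with POSR2 only (5152 against 3398, 6441 against 3735), for losses with POSR1 only (5457 against 4198) and with library totals (4860 against 4371), and for gains with factors of each full table (3314 against 2952). The same held in both directions without any 1 of the day 14 and day 0 libraries, as in 3227 gains against 2404 lost and 4013 losses against 3348 lost without the first day 0 library.

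The replicate block, where replicate numbers showed no pairing, gave 6777 POSR calls, 8936 of the difference, 1111 gains and 1862 losses the same way, 26 and 85 exceeded, 186 and 310 reversed, and 235 and 225 in POSR alone. Leaving out each library in turn gave 11293 to 18273 POSR calls, 29156 to 34804 at day 14 and 10036 to 14515 of the difference. Gains called the same way ranged over 1959 to 3288 and losses over 2717 to 4160, lost gains over 2404 to 4018 and lost losses over 3333 to 5013. Exceeded gains ranged over 17 to 91, exceeded losses over 89 to 246, reversed gains over 339 to 609 and reversed losses over 644 to 1444. Regions in POSR alone ranged over 362 to 595 higher and 386 to 627 lower. The causes of these moves were not tested. With simulated 2-fold differences the test of the difference recovered 5%, and with 4-fold ones 68%, so undetermined fates may hold changes of 2-fold. Changes kept in full may likewise differ between POSR and day 14 by 2-fold.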

Other observations

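Long unbroken runs of regions at least 2-fold higher were more numerous in POSR than at day 14. Runs of 10 or more consecutive regions of the POSR table numbered 34 in POSR1 and 29 in POSR2, against 13 in the day 14 table. Runs at least 2-fold lower numbered 8 in POSR1 and 13 in POSR2, against 20 at day 14. The tables list different regions, and the share of runs that follows from this was not tested.

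The longest run held 51 regions at chrX:141459769-146984263, with medians of 3.28 in POSR1 and 2.31 in POSR2, and no region of the day 14 table lay in it. A run of 40 regions at chr3:77983867-81608610 had medians of 2.83 in POSR1 and 1.74 in POSR2, and one of 39 regions at chr13:67643369-71830822 had medians of 2.90 and 2.04. The longest run of lower regions in POSR1, 16 regions at chr4:99393883-99716151, had medians of -2.20 in POSR1 and -1.68 in POSR2, while 14 regions of the day 14 table within it had a median of -0.01, with 5 called higher and 6 lower. In the longest run of day 14 losses, 14 regions at chr20:36701096-36846564 with a median of -2.08, the 15 regions of the POSR table had a median of 0.48 and 8 were called higher in POSR.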
